A study of Mus musculus with 9 samples.

Results

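Keratins are the intermediate filament proteins of epithelial cells. The family was taken as every non-control probe whose gene name in the scanner files of the Fzd8-CRD arrays was Krt followed by a digit, with the keratin-associated Krtap genes left out. This gave 42 of the 27575 gene names on the array, with 49 of the 41174 probes on the array. The cells were freshly isolated tumour cells of mice, sorted for lack of GFP, and the labels name both MMTV-Wnt-1 and MMTV-Her2 for every array, so the tumour models could not be separated. In these lines a mammary tumour virus promoter drives the ligand Wnt-1 or the receptor kinase Her2 in the mammary epithelium. Cells given Fzd8-CRD, a soluble part of the receptor Frizzled 8 that binds Wnt ligands, were measured on 5 arrays and control cells on 4, described by the submitters as biological replicates. The treatment protocol names the inhibitor for the controls too, and what the controls received is not stated. RNA of the sorted cells carried Cy5 and a reference RNA carried Cy3. The labels describe that reference in conflicting ways, as a universal mouse RNA, a pool of strains and a universal human RNA, and whether both groups were set against the same RNA is not stated. Every value below is therefore a ratio to a reference and not a level. The cell type that GFP marked, the ages of the mice and any pooling are not stated either.

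A keratin filament is built from pairs of a type I and a type II protein. The mouse genes of type I lie together on chromosome 11 and those of type II on chromosome 15, except that Krt18, of type I, lies beside its partner Krt8. In the mammary gland Krt5 and Krt14 mark basal and myoepithelial cells, and Krt8 and Krt18 mark luminal cells. Krt6 and Krt16 are induced in injured or hyperproliferative epithelium, Krt1 and Krt10 appear as epidermal cells leave the basal layer, Krt4 and Krt13 line wet mucosa, and a large set of hair keratins builds the follicle and the shaft. By these roles the 42 genes were 4 basal, 3 stress-inducible and 6 luminal or simple-epithelial keratins, 28 hair and epidermal keratins, and Krt222, a keratin-like gene in no class.

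Before the values, 3 properties of the arrays bear on all of them. The 5 Fzd8-CRD arrays came from 4 slides and 2 scan days and the 4 control arrays from 1 further slide and day, so slide, scan and treatment cannot be told apart. The Cy5 signal cleared the scanner's background test for 52.4% to 60.0% of probes with Fzd8-CRD and for 63.8% to 70.9% in controls. Of the 49 keratin probes it did so for 23 to 31 with Fzd8-CRD and for 34 to 40 in controls. Control replicate 2 stood apart, with correlations of 0.618 to 0.737 to the other 8 arrays across genes, whereas r reached 0.976 between Fzd8-CRD replicates 1 and 2, and 0.979 between control replicates 3 and 4. The count of called keratins is given below also without control replicate 2. All 14 pan-epithelial marker genes looked for, Epcam and Cdh1 among them, were well above background on at least 4 arrays.

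The sequences of the probes show what was measured. Each probe is 60 bases long, printed 5′ to 3′ as the files give it, and the strand and the coordinates are those of build mm8 in the scanner files. The first set holds probes within the coding sequence of genes on which the results turn. In the brighter Krt13 probe the last 33 bases are in capitals, because they encode the motif that begins the central helix of type I keratins, a stretch that this type conserves.
Krt6b, chr15:101507053-101507112, minus strand: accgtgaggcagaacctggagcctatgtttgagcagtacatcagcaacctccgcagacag
Krt4, chr15:101747761-101748339, minus strand: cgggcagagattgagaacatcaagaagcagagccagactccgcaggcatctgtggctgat
Krt13, chr11:99937247-99937306, minus strand: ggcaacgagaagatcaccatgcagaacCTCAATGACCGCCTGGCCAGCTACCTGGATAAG
Krt13, other probe, chr11:99935486-99935724, minus strand: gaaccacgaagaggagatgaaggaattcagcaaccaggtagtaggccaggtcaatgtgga
Krt14, chr11:100019459-100020064, minus strand: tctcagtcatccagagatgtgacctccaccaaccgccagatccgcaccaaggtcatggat
Krt7, probe in the coding sequence, chr15:101251321-101251380, plus strand: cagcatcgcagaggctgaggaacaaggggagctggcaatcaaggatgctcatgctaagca
Krt10, other probe, chr11:99202770-99202829, minus strand: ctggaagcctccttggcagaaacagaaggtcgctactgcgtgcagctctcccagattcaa

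The second set gives the last 30 bases of further probes, with the polyadenylation signal AATAAA in capitals where it occurs. These are the probes of the gene that rose, of 2 genes that fell, of the basal keratin Krt17, and of the luminal keratins Krt8 and Krt7, the last to be set beside the coding-sequence probe of Krt7.
Krt5, chr15:101535117-101535176, minus strand: tgacttcctccagagtctgtccAATAAAat
Krt6a, chr15:101518465-101518524, minus strand: tcaccaagagcttgtctctggtcccagatg
Krt79, chr15:101757661-101757720, minus strand: tgagtatttgtagtgcacaatttacatata
Krt17, chr11:100072360-100072419, minus strand: tgcttgagaccattaaagcttgctgacctg
Krt8, chr15:101824949-101825008, minus strand: agtgaatggccactgaagtccttgccagcc
Krt7, probe at the 3′ end, chr15:101255775-101255834, plus strand: tAATAAAgggcctctctgagagagctgcat

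AATAAA occurred in 3 of the 49 keratin probes (6.12%), those of Krt5, Krt7 and Krt16, against 4.78% of all probes. Keratin genes resemble each other in their rod domains, but the longest run that any 2 probes of different keratins shared was 13 bases. Matches of a probe to the transcripts of other keratins were not searched here, and Krt6a and Krt6b, whose coding sequences are nearly alike, are to be read as uncertain for that reason.

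A gene was tested where a probe of it had a Cy5 signal well above background on 4 or more of the 9 arrays, and the brightest such probe stood for the gene. This held for 32 of the 42 keratin genes. A gene is said to have risen or fallen where limma's moderated test, adjusted by Benjamini-Hochberg over all 18274 genes tested, gave an adjusted p below 0.05. By this rule 1 keratin gene rose with Fzd8-CRD and 7 fell, and 24 did not pass. Over all genes 6.58% rose and 7.73% fell (14.3% in all). The gene that rose was Krt5. Those that fell were Krt79, Krt6b, Krt4, Krt6a, Krt13, Krt87 and Krt84, of which 6 lie on chromosome 15 and Krt13 on chromosome 11. The median log2 difference, Fzd8-CRD minus control, was -0.23 over the 32 keratins and -0.072 over all genes. By type, 1 of 17 type II genes rose and 6 fell (median -0.47), while 0 of 15 type I genes rose and 1 fell (median 0.025). Without control replicate 2 the numbers were 3 higher and 10 lower, against 16.9% of all genes called in either direction, and all 8 genes named above were among these 13.

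Each dye was also compared alone after quantile normalization. The reference channel by itself, Cy3, differed for 59.1% of all genes and for 11 of the 32 keratins. With Cy5 alone 0 keratins passed as higher and 5 as lower, against 10.1% and 8.71% of all genes. Those 5 were Krt6a, Krt6b, Krt79 and Krt84, which also fell by the ratio, and Krt80. The scanner software's own ratio split the calls the other way, with 3 of 32 keratins higher (Krt5, Krt71 and Krt9) and 0 lower, against 15.2% of all genes called in either direction. When the closest arrays, Fzd8-CRD replicates 1 and 2 and control replicates 3 and 4, were each averaged into 1, limma's test called 0 keratins and 338 of all genes, and the adjusted p of the 8 genes then lay between 0.0531 for Krt6a and 0.105 for Krt4.

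**Figure D1:**
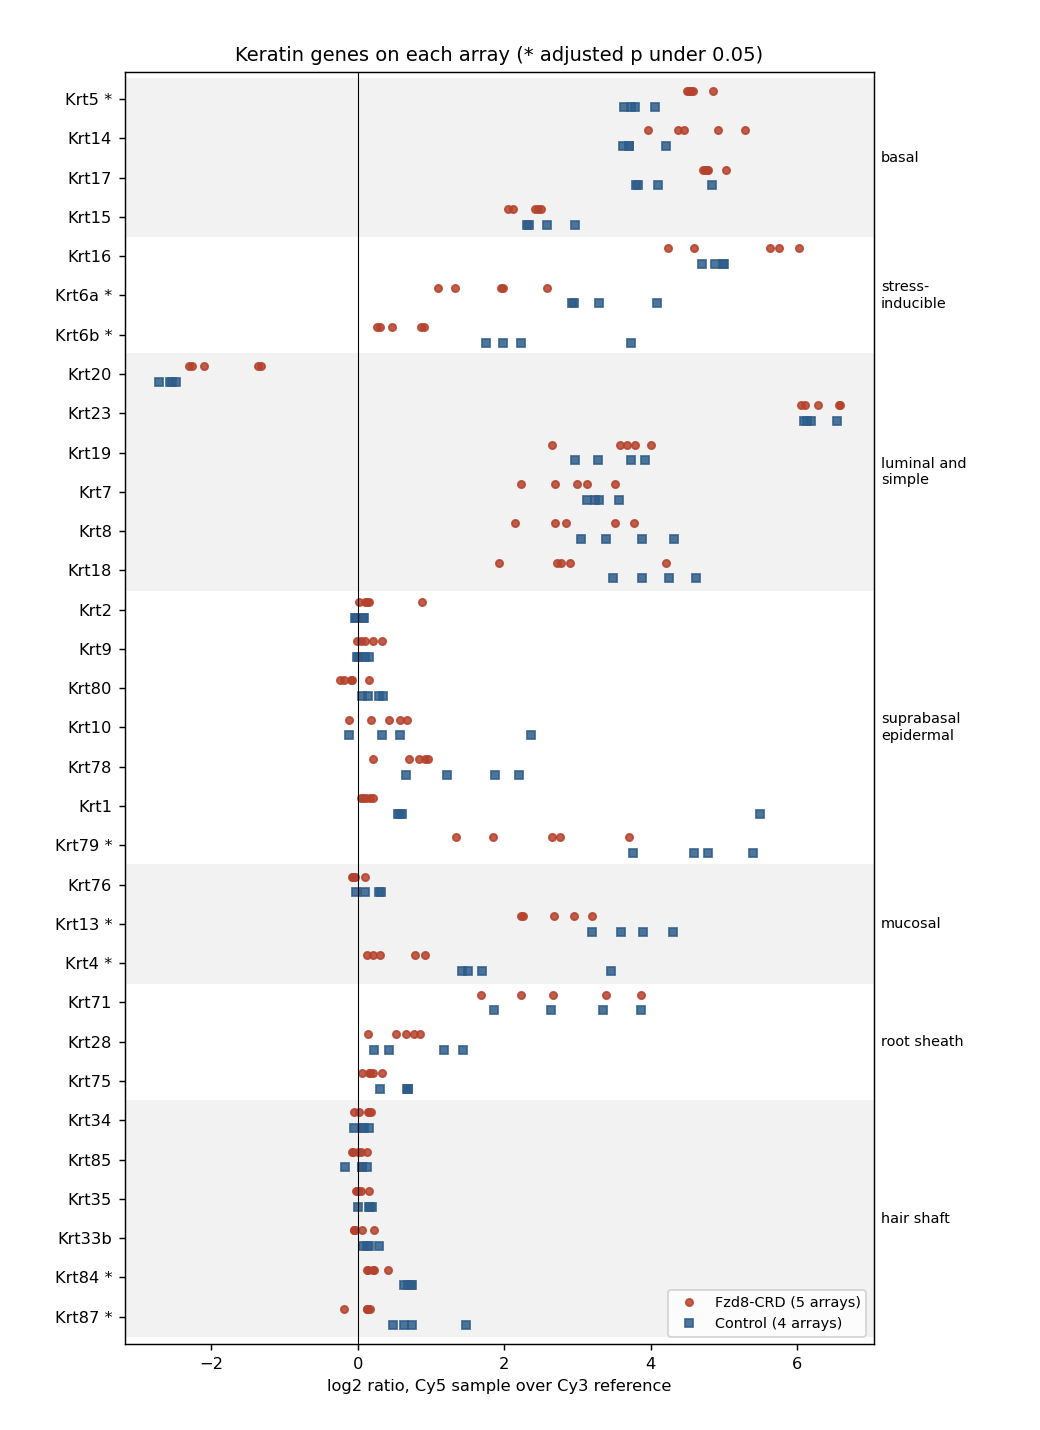
Log2 ratio of Cy5 sample to Cy3 reference on each of the 5 Fzd8-CRD arrays (circles) and 4 control arrays (squares) for the 32 keratin genes tested, grouped by role. Krt5 lies higher on every Fzd8-CRD array, Krt6a, Krt6b, Krt79 and Krt4 lie lower on every Fzd8-CRD array, and Krt1 has a single control array at 5.50.

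Of the basal keratins, 1 of 4 rose, and Krt14 and Krt17 had differences of like size that did not pass. The class median of the difference was 0.73. Krt5, the type II partner of Krt14, had log2 ratios of 4.56, 4.85, 4.58, 4.53 and 4.49 on the Fzd8-CRD arrays, against 3.63, 4.07, 3.73 and 3.79 on the control arrays. Every Fzd8-CRD array lay above every control array. The means were 4.60 ± 0.145 (SD, n = 5) with Fzd8-CRD and 3.81 ± 0.19 (SD, n = 4) in controls, and Krt5 rose by 0.80 log2 units (SE 0.13, limma adjusted p = 0.00714), a 1.74-fold higher ratio. With Cy5 alone, however, Krt5 differed by 0.051 (limma adjusted p = 0.883). Its Cy5 signal, as log2 intensity, was 14.46 to 15.43 on the Fzd8-CRD arrays and 14.53 to 15.22 on the control arrays, which overlap. Its Cy3 reference signal was 10.003 to 10.79 on the Fzd8-CRD arrays and 10.94 to 11.36 on the control arrays, so the reference was the channel in which the groups stood apart (-0.80, limma adjusted p = 0.000716).

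Krt14, the type I partner, had log2 ratios of 4.38, 4.93, 3.96, 4.45 and 5.29 on the Fzd8-CRD arrays, against 3.70, 4.22, 3.71 and 3.62 on the control arrays. The groups overlapped, since control replicate 2 lay above Fzd8-CRD replicate 3. Its difference of 0.79 (SE 0.26, limma adjusted p = 0.0718) did not pass, but it passed at 0.92 without control replicate 2 (limma adjusted p = 0.0485). Krt17, a keratin of basal and follicle cells that is also induced by stress, had log2 ratios of 4.72, 5.04, 4.74, 4.77 and 4.78 on the Fzd8-CRD arrays, against 4.11, 4.84, 3.83 and 3.80 on the control arrays. Here too control replicate 2 was the control that reached the Fzd8-CRD range. The difference of Krt17 was 0.66 (SE 0.21, limma adjusted p = 0.0639), and 0.90 without control replicate 2 (limma adjusted p = 0.00519). Krt15, a keratin of basal cells and of stem cells of the hair follicle, went the other way in sign (-0.24, SE 0.17, limma adjusted p = 0.353), with 2.05 to 2.50 on the Fzd8-CRD arrays and 2.31 to 2.97 on the control arrays. Its groups overlapped.

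Basal and myoepithelial markers other than keratins were counted beside these, against 6.58% of all genes that rose and 7.73% that fell. Of 16 tested, 4 rose and 0 fell, with a median of 0.65, and the 4 were Lama3, a laminin chain (0.90), Tagln (1.62) and Cnn1 (1.03), smooth muscle proteins of myoepithelium, and the integrin gene Itga6 (0.91), with limma adjusted p of 0.00545 to 0.0415. The part of basal cell content in the basal keratin values was not tested. The array medians of these 16 markers, relative to each gene's mean, ran from -0.23 to 0.61 on the Fzd8-CRD arrays. On the control arrays the medians ran from -0.91 to -0.069. A change in the share of basal cells and a change in basal RNA per cell cannot be told apart in RNA of a whole sample, and the same holds for every class below.

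Of the 3 stress-inducible keratins, both Krt6 genes fell while Krt16, the type I partner of Krt6, did not pass. The class median was -1.53. Krt6b had log2 ratios of 0.27, 0.87, 0.46, 0.90 and 0.31 on the Fzd8-CRD arrays, against 1.76, 3.73, 2.23 and 1.98 on the control arrays. The groups did not overlap, and the lowest control lay well above the highest Fzd8-CRD array. Krt6b fell by 1.87 log2 units (SE 0.37, limma adjusted p = 0.0132), and by 1.43 without control replicate 2, its highest array (limma adjusted p = 0.00515). Krt6a had log2 ratios of 1.33, 2.58, 1.96, 1.98 and 1.10 on the Fzd8-CRD arrays, against 3.29, 4.09, 2.96 and 2.93 on the control arrays. Its groups were apart as well, if by less. Krt6a fell by 1.53 (SE 0.34, limma adjusted p = 0.019), and its Cy5 signal alone was 7.85 to 8.81 on the Fzd8-CRD arrays and 10.02 to 11.19 on the control arrays, a difference of -1.91 (limma adjusted p = 0.00356).

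The Cy3 reference signal of Krt6a was lower on the Fzd8-CRD arrays too, at 6.53 to 6.70 against 7.49 to 7.75 in controls, and cleared background on 3 of 5 arrays with Fzd8-CRD and 4 of 4 control arrays. With the scanner's own ratio Krt6a turned to a positive difference of 0.78 (limma adjusted p = 0.0881), with 4.00 to 4.73 on the Fzd8-CRD arrays and 3.13 to 4.31 on the control arrays. Krt6b kept its sign there (-0.68, limma adjusted p = 0.371), and its reference signal cleared background on 0 of 5 arrays with Fzd8-CRD and 4 of 4 control arrays. The direction of Krt6a thus turned with the scanner's ratio, and that of Krt6b did not turn in any alternative tried.

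Krt16 was spread widely with Fzd8-CRD, at log2 ratios of 4.24, 4.59, 5.63, 6.03 and 5.75, against 4.98, 5.01, 4.70 and 4.88 on the control arrays. Fzd8-CRD replicates 1 and 2 lay below all controls and the other 3 above them. The SD was 0.78 (n = 5) with Fzd8-CRD and 0.14 (n = 4) in controls, and the difference in means was 0.36 (SE 0.36, limma adjusted p = 0.505).

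None of the 6 luminal and simple-epithelial keratins passed, and 2 had an unadjusted p below 0.05. The class median was -0.16. Krt18, the type I keratin of luminal cells, had log2 ratios of 2.72, 2.78, 4.22, 2.90 and 1.93 on the Fzd8-CRD arrays, against 4.62, 3.49, 4.25 and 3.88 on the control arrays. Of the Fzd8-CRD arrays 4 lay below every control, and replicate 3 lay among them. The difference of Krt18 was -1.15 (SE 0.41, limma adjusted p = 0.0884), and it passed at -1.48 without Fzd8-CRD replicate 3 (limma adjusted p = 0.0176). Its Cy5 signal alone differed by -0.54 (limma adjusted p = 0.158) and its Cy3 reference signal by 0.94 (limma adjusted p = 0.00946). Its Cy5 signal took the same value, 18.35, on control replicates 1, 3 and 4, as quantile normalization gives to probes of equal rank, so the Cy5 difference cannot be set against that of Cy3 to divide the ratio. Krt8, its type II partner, had log2 ratios of 2.70, 2.84, 3.77, 3.51 and 2.15 on the Fzd8-CRD arrays, against 4.32, 3.39, 3.89 and 3.04 on the control arrays. The groups overlapped and the difference was -0.66 (SE 0.36, limma adjusted p = 0.236), with -0.36 on its other probe.

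The probes of Krt7, a type II keratin of ducts, gave unlike answers. The probe at the 3′ end, which stood for the gene, had 2.70, 3.00, 3.52, 3.13 and 2.24 on the Fzd8-CRD arrays, against 3.56, 3.30, 3.14 and 3.25 on the control arrays, a difference of -0.40 (SE 0.24, limma adjusted p = 0.276). The probe in the coding sequence had 2.11, 2.41, 3.06, 2.77 and 1.50 on the Fzd8-CRD arrays, against 4.17, 3.77, 3.44 and 3.29 on the control arrays. These groups did not overlap, and over the 26836 probes tested singly that probe fell by 1.30 (SE 0.31, limma adjusted p = 0.0247). In that comparison of probes 10 of the 36 keratin probes tested passed, against 14.6% of all probes (6.77% higher and 7.85% lower), namely the probes of the 8 called genes, this Krt7 probe and that of Krt75.

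Krt20, a keratin of gut and bladder lining, was the keratin whose ratio lay far below the reference, at -2.10, -2.31, -1.32, -2.26 and -1.36 on the Fzd8-CRD arrays, against -2.71, -2.48, -2.57 and -2.54 on the control arrays. Every Fzd8-CRD array lay above every control, yet the difference of 0.71 (SE 0.23, limma adjusted p = 0.0713) did not pass, and it was 0.19 with Cy5 alone and -0.35 in the reference. Over all genes 7.90% were apart in this direction, and among the 32 keratins 2 were, Krt5 and Krt20. Krt19, a luminal keratin, differed by 0.068 (SE 0.29, limma adjusted p = 0.89), with 2.65 to 4.01 on the Fzd8-CRD arrays and 2.97 to 3.92 on the control arrays. Krt23 stood highest of all keratins relative to the reference, at 6.05 to 6.58 on the Fzd8-CRD arrays and 6.09 to 6.55 on the control arrays, and differed by 0.075 (SE 0.16, limma adjusted p = 0.771). Both overlapped fully.

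Luminal markers other than keratins had 1 gene higher and 2 lower of 20, with a median of -0.52 by the ratio and -0.0028 with Cy5 alone. Of all genes 6.58% rose and 7.73% fell, the shares to set beside this list and the pan-epithelial list. Mfge8, a milk fat globule protein, rose (0.94), and Prom1 (-1.68) and Ly6a (-1.21) fell. Pan-epithelial markers had 1 higher, Spint2, a protease inhibitor (1.69, beside 1.79 in the Cy3 reference alone), and 4 lower of 14, among them the splicing regulator Esrp1 (-1.58) and the claudin Cldn4 (-1.30), with a median of -0.55. Pan-epithelial medians by array ran from -1.10 to 0.022 with Fzd8-CRD and from 0.11 to 0.65 in controls, and the lowest was that of Fzd8-CRD replicate 5, which also had the lowest ratio of Krt8, Krt18, Krt7 and Krt19. The part of epithelial content in the luminal values was not tested.

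**Figure D2:**
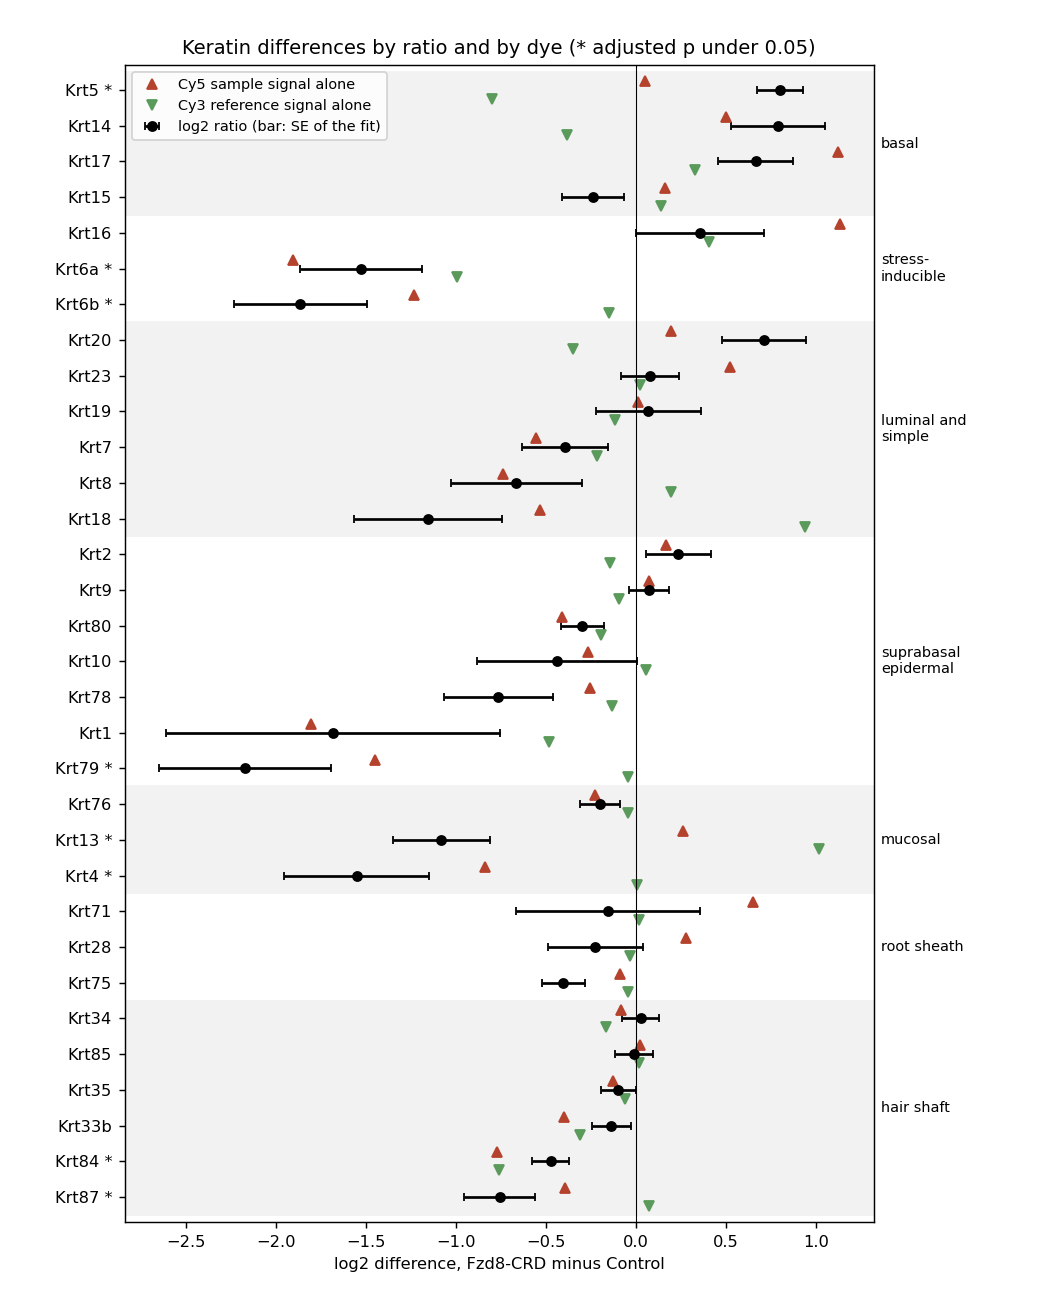
Difference of Fzd8-CRD minus control in log2 units for the 32 keratins tested, as the ratio with the SE of the fit (black), the Cy5 sample signal alone (triangles up) and the Cy3 reference signal alone (triangles down). Krt5 has a ratio difference of 0.80 with Cy5 near 0 and Cy3 at -0.80, whereas Krt79 has Cy5 at -1.45 and Cy3 near 0. The Cy3 signal of Krt79 cleared background on 2 of 5 Fzd8-CRD arrays.

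Of the 19 hair and epidermal keratins tested 0 rose and 5 fell, with a median of -0.30. The suprabasal keratin Krt79, which in mice marks cells of the upper hair follicle, had the largest fall of the 32 keratins. Its log2 ratios were 2.65, 3.71, 2.77, 1.85 and 1.35 on the Fzd8-CRD arrays, against 3.76, 5.40, 4.79 and 4.60 on the control arrays. The groups were apart by little, since Fzd8-CRD replicate 2 nearly reached control replicate 1. Krt79 fell by 2.17 (SE 0.48, limma adjusted p = 0.0184), and by 1.45 with Cy5 alone (limma adjusted p = 0.0329), while its Cy3 signal differed by -0.046. That Cy3 signal cleared background on 2 of 5 arrays with Fzd8-CRD and 4 of 4 control arrays, so a difference in the reference could be missed. Krt79 did not pass with the scanner's ratio (-0.43, limma adjusted p = 0.297) or without control replicate 3 (limma adjusted p = 0.0525).

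The mucosal keratins Krt4 and Krt13, which pair with each other, both fell by the ratio but differed by dye. Krt4 had log2 ratios of 0.21, 0.30, 0.92, 0.78 and 0.12 on the Fzd8-CRD arrays, against 3.46, 1.50, 1.42 and 1.70 on the control arrays. The groups were apart and control replicate 1 was the highest by far. Krt4 fell by 1.55 (SE 0.40, limma adjusted p = 0.0336), and with Cy5 alone the difference was -0.84 (limma adjusted p = 0.164). Its reference signal cleared background on 0 of 5 arrays with Fzd8-CRD and 2 of 4 control arrays. With the scanner's ratio Krt4 differed by -1.29 and did not pass (limma adjusted p = 0.18). Krt13 had 2.24, 2.26, 2.96, 3.20 and 2.69 on the Fzd8-CRD arrays, against 3.89, 4.30, 3.60 and 3.20 on the control arrays, where the nearest arrays of the groups agree to 2 decimals. Krt13 fell by 1.08 (SE 0.27, limma adjusted p = 0.028), but scaling between arrays gave a positive 0.45, Cy5 alone a positive 0.26 (limma adjusted p = 0.581) and the Cy3 reference alone a positive 1.02 (limma adjusted p = 8.91e-07).

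For Krt13 the reference signal was 8.60 to 8.99 on the Fzd8-CRD arrays and 7.71 to 7.97 on the control arrays, while its Cy5 signal, at 10.50 to 11.98 and 10.43 to 11.47, overlapped. Its other probe, shown above, cleared background in Cy5 on 0 of 5 arrays with Fzd8-CRD and 1 of 4 control arrays, and was not tested. Its ratios were -0.58 to -0.22 on the Fzd8-CRD arrays and -1.01 to -0.56 on the control arrays, with the Cy5 signal too dim to set it against the brighter probe. Krt76, a keratin of the palate, cleared background in Cy5 on 0 of 5 arrays with Fzd8-CRD and 4 of 4 control arrays, and differed by -0.20 (SE 0.11, limma adjusted p = 0.241).

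Krt1 and Krt10, a pair that appears as epidermal cells differentiate, set control replicate 2 apart. Krt1 had log2 ratios of 0.11, 0.21, 0.05, 0.17 and 0.07 on the Fzd8-CRD arrays, against 0.60, 5.50, 0.58 and 0.56 on the control arrays. All controls lay above all Fzd8-CRD arrays, and control replicate 2 lay above everything else. The SD of the controls was 2.46 (n = 4), and the difference of -1.68 (SE 0.93, limma adjusted p = 0.24) did not pass. Without control replicate 2 it was -0.46 and passed (limma adjusted p = 0.0143). In the mm8 annotation the probe that stood for Krt1 lies on the plus strand and the other probe on the minus strand. Probes of the neighbouring genes Krt2 and Krt76 lie on the minus strand. The strand of Krt1 itself was not checked, so the values of the plus-strand probe may not be those of the Krt1 transcript. The other probe read -0.053 to 0.087 on the Fzd8-CRD arrays, against 1.88 on control replicate 2 and -0.31 to -0.27 on the other controls. Both probes were high on control replicate 2. On the other controls they disagreed, since the probe that stood for Krt1 lay above the Fzd8-CRD arrays and the other probe below them. The probe that stood for Krt1 was above background on 3 of 5 arrays with Fzd8-CRD.

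Krt10, the type I partner of Krt1, had 0.57, 0.68, -0.12, 0.18 and 0.44 on the Fzd8-CRD arrays, against -0.12, 2.37, 0.33 and 0.58 on the control arrays. Again control replicate 2 was alone, and its other probe read 0.18 to 0.51 on the Fzd8-CRD arrays, 2.63 on control replicate 2 and 0.47 to 0.60 on the other controls. The difference was -0.44 (SE 0.44, limma adjusted p = 0.508), and 0.086 without that array (limma adjusted p = 0.812). Of 12 genes of the cornified envelope tested, 0 rose and 1 fell, against 6.58% and 7.73% of all genes. The gene that fell was the envelope protein Sprr1a (-1.43, SE 0.33, limma adjusted p = 0.0206). The median of the 12 genes relative to each gene's mean was -0.56 to -0.18 on the Fzd8-CRD arrays, 1.05 on control replicate 2 and -0.038 to 0.13 on the other controls. Lymphocyte markers stood at -0.40 to -0.14 on the Fzd8-CRD arrays, 2.25 on control replicate 2 and -0.26 to -0.0057 on the other controls. The part of either list in the Krt1 and Krt10 values was not tested.

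**Figure D3:**
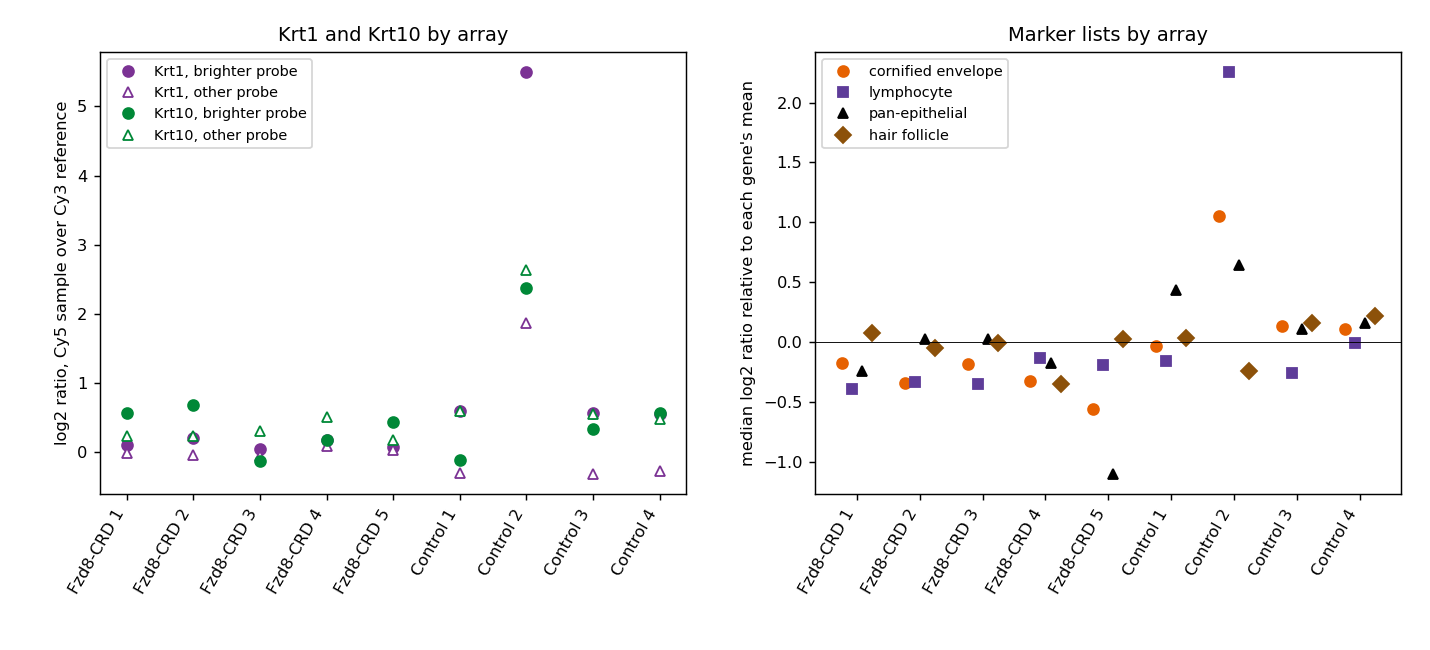
Left, log2 ratio of both probes of Krt1 and of Krt10 on each of the 9 arrays. Right, median log2 ratio of 4 marker lists on each array relative to each gene's mean. Control replicate 2 has Krt1 at 5.50 and Krt10 at 2.37, a cornified envelope median of 1.05 and a lymphocyte median of 2.25.

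The other suprabasal keratins tested did not pass. Krt78, at 0.21 to 0.97 on the Fzd8-CRD arrays and 0.67 to 2.21 on the control arrays, differed by -0.77 (SE 0.30, limma adjusted p = 0.116), and passed at -1.04 without control replicate 2 (limma adjusted p = 0.0249). Krt80 differed by -0.30 (SE 0.12, limma adjusted p = 0.122), and was lower with Cy5 alone (-0.41, limma adjusted p = 0.0449). Krt2, a keratin of the upper epidermis, and Krt9, the keratin of palms and soles, lay near a log2 ratio of 0 on most arrays, with differences of 0.23 (limma adjusted p = 0.381) and 0.072 (limma adjusted p = 0.677).

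Among the hair keratins, Krt84 and Krt87, both of type II and grouped here with the shaft keratins, fell by small amounts. Krt84 had log2 ratios of 0.22, 0.41, 0.21, 0.14 and 0.13 on the Fzd8-CRD arrays, against 0.68, 0.63, 0.74 and 0.73 on the control arrays. The groups were apart with little spread in either. Krt84 fell by 0.47 (SE 0.10, limma adjusted p = 0.0176). In single dyes it fell by 0.77 in Cy5 (limma adjusted p = 0.00375), and the Cy3 reference signal fell by 0.76 as well (limma adjusted p = 1.93e-06). It was dim, above background on 3 of 5 arrays with Fzd8-CRD, and turned to a positive 0.55 with the scanner's ratio (limma adjusted p = 0.478). Krt87, which the files give under an older keratin name, had 0.12, -0.19, 0.13, 0.14 and 0.17 on the Fzd8-CRD arrays, against 1.47, 0.64, 0.74 and 0.48 on the control arrays. It was near a ratio of 0 with Fzd8-CRD and above it in every control. Krt87 fell by 0.76 (SE 0.20, limma adjusted p = 0.0338), and by 0.40 with Cy5 alone, which did not pass (limma adjusted p = 0.181).

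The shaft keratins Krt33b, Krt34 and Krt35, of type I, and Krt76 were well above background on all control arrays and on 0 of the Fzd8-CRD arrays. Mean Cy5 signals were higher in controls, by 1.36-fold for Krt33b, 1.08-fold for Krt34, 1.11-fold for Krt35 and 1.18-fold for Krt76. These are folds of the measured means, near background with Fzd8-CRD, and not lower bounds. The adjusted p of their ratios ran from 0.241 to 0.885. For Krt33b the quantile-normalized Cy5 signal was 7.17 on control replicate 4 and 6.49 to 6.65 on the other controls. Its Cy3 reference signal was high on the same array, at 7.21 against 6.44 to 6.46 on the other controls. Krt85, of the hair matrix and cortex, differed by -0.012 (SE 0.11, limma adjusted p = 0.95).

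The root sheath keratin Krt71 was the hair keratin with a clear signal and no difference by the ratio. It had 3.39, 3.88, 1.69, 2.23 and 2.67 on the Fzd8-CRD arrays, against 1.86, 2.64, 3.35 and 3.87 on the control arrays, which covers the same range. The difference was -0.16 (SE 0.51, limma adjusted p = 0.853). The scanner's ratio gave 6.13 to 6.88 on the Fzd8-CRD arrays and 4.19 to 5.49 on the control arrays, which is higher by 1.61 (limma adjusted p = 0.00997), while its Cy3 signal cleared background on 1 of 5 arrays with Fzd8-CRD and 4 of 4 control arrays. Krt75, of the companion layer, lay just outside the threshold, at 0.16, 0.06, 0.33, 0.20 and 0.18 on the Fzd8-CRD arrays, against 0.69, 0.31, 0.68 and 0.68 on the control arrays. Control replicate 2 was the control within the Fzd8-CRD range. Krt75 differed by -0.40 (SE 0.12, limma adjusted p = 0.0518), and passed at -0.50 without that array (limma adjusted p = 0.0136). Krt28, of the inner root sheath, differed by -0.23 (SE 0.26, limma adjusted p = 0.57).

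The 10 genes not tested were the root sheath keratins Krt25, Krt26 and Krt27, the shaft keratins Krt31, Krt32, Krt33a, Krt36 and Krt82, and Krt42 and Krt222. Their probes cleared background in Cy5 on at most 1 of 5 arrays with Fzd8-CRD and at most 2 of 4 control arrays. For Krt222 the reference signal was well above background on all 9 arrays. The share of keratins tested, and of those apart, depends on this filter, which a gene bright in the controls alone can pass. Of the 20 keratins well above background in Cy5 on all 9 arrays, 7 were called, and when the fit was limited to such probes 7 keratins were called too, against 14.8% of all genes. Groups were apart and lower with Fzd8-CRD for 8 of the 32 keratins, against 11.7% of all genes. These were the 7 that fell and Krt1, whose other probe overlapped.

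**Figure D4:**
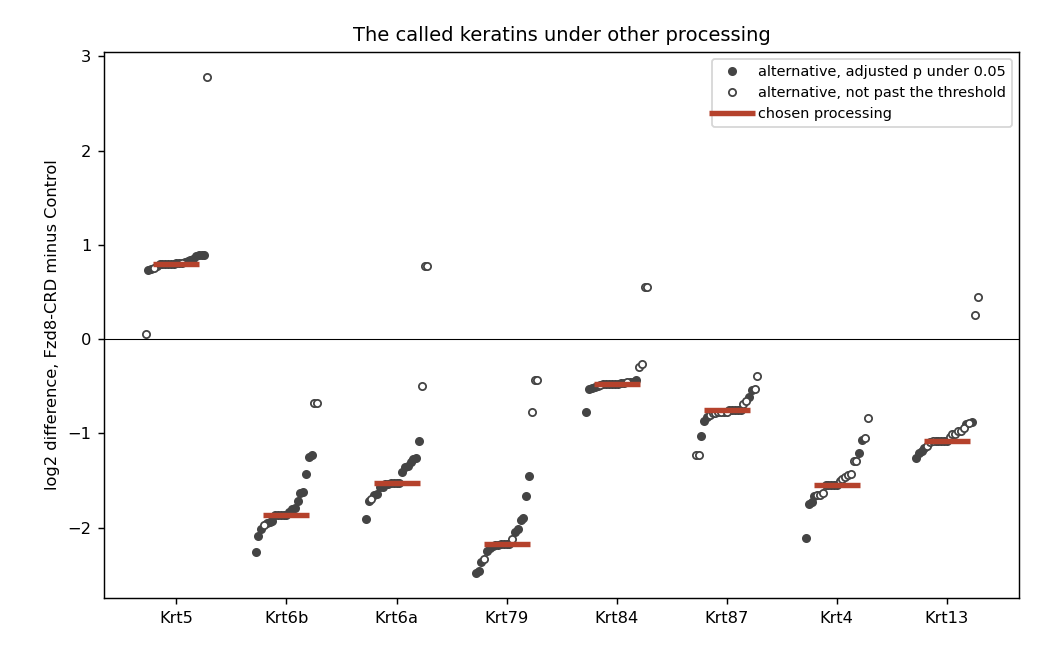
Difference of Fzd8-CRD minus control in log2 units for the 8 called keratins under each of the other processings tried, without the reference dye alone (filled, adjusted p under 0.05; open, not past the threshold). The bar marks the chosen processing. Quantile normalization of the mean intensity of both dyes leaves the log ratios unchanged, so its points repeat that bar. Points of the other filters on dim probes have the same differences and differ in adjusted p alone. Krt5 runs from 0.051 with Cy5 alone to 2.78 with scaling between arrays, and Krt6b and Krt79 are below 0 in all of them, whereas Krt6a, Krt84 and Krt13 each have alternatives above 0.

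Genes that anchor keratin filaments were counted next, against the 14.3% of all genes that passed. Of 10 desmosome genes tested 1 rose and 1 fell, with a median of 0.074. Desmoplakin, Dsp, which ties keratin filaments to the desmosome, had 5.58, 5.26, 5.25, 5.69 and 5.12 on the Fzd8-CRD arrays, against 3.85, 3.85, 4.35 and 4.43 on the control arrays. The groups were apart, and Dsp rose by 1.26 (SE 0.18, limma adjusted p = 0.00534) and by 1.30 with Cy5 alone. Dsc2, a desmosomal cadherin, fell by 1.39 (SE 0.23, limma adjusted p = 0.00785). Of 9 hemidesmosome and linker genes 1 rose, the integrin gene Itga6, and 0 fell (median 0.21).

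Of 9 hair follicle differentiation genes tested 0 rose and 2 fell, S100a3, a calcium-binding protein of the hair cuticle (-1.23, SE 0.22, limma adjusted p = 0.00964), and the homeobox gene Msx2 (-1.77, SE 0.43, limma adjusted p = 0.0261), with a median of -0.097. Of 15 transcription factors known to act on keratin or epithelial genes 1 rose, Cebpb (0.84, SE 0.20, limma adjusted p = 0.0243), and 1 fell, Ehf (-1.42, SE 0.35, limma adjusted p = 0.0283), with a median of -0.0038. Of 13 other intermediate filament genes 1 rose and 1 fell. Synm, which encodes synemin of muscle-like cells, rose by 1.26 (SE 0.34, limma adjusted p = 0.0397), and Vim, the vimentin gene of mesenchymal cells, fell by 1.17 (SE 0.33, limma adjusted p = 0.0453).

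Markers of other cells were counted as well, against 6.58% of all genes that rose and 7.73% that fell. All 12 endothelial markers tested fell, with a median of -1.91 and array medians of -1.51 to -0.081 with Fzd8-CRD against 0.77 to 1.47 in controls. Of 12 fibroblast markers 3 fell (median -1.17), of 12 macrophage markers 1 fell (median -0.75), of 14 lymphocyte markers 0 passed (median -0.72), and of 4 erythrocyte markers tested 3 fell (median -3.65). None of these lists had a member that rose. Array medians were -1.15 to 0.39 with Fzd8-CRD and -0.80 to 1.78 in controls for fibroblast markers, -0.50 to 0.081 with Fzd8-CRD and -0.035 to 1.25 in controls for macrophage markers, and -1.95 to -0.82 with Fzd8-CRD and 0.68 to 5.12 in controls for erythrocyte markers. Their part in the keratin differences was not tested.

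Where RefSeq gave a promoter window of 300 bases around the start of the gene on build GRCm38.p6, the keratins were searched for the TATA box letters TATAAA on either strand. Windows were found for 28 of the 42 genes. The letters occurred in 15 of 29 keratin windows (51.7%) and in 13.6% of the 32851 windows of all genes, which is a description of letters and not of sites. By class they occurred for 13 of 21 hair and epidermal genes, 2 of 5 luminal genes and 0 of 2 basal genes. The window of Krt10, the epidermal keratin high on a single control array, is printed with TATAAA in capitals, 26 bases upstream of the start. Beside it is that of Krt5, the keratin that rose, which lacks these exact letters. Variants that differ by a letter were not searched, and GATAAA stands in the Krt5 window.
Krt10, chr11:99389315-99389614, minus strand: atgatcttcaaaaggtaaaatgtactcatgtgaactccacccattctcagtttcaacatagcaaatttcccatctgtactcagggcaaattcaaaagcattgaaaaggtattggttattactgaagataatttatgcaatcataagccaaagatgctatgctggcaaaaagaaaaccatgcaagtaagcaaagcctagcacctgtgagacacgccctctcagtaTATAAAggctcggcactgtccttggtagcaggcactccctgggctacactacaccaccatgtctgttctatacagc
Krt5, chr15:101712856-101713155, minus strand: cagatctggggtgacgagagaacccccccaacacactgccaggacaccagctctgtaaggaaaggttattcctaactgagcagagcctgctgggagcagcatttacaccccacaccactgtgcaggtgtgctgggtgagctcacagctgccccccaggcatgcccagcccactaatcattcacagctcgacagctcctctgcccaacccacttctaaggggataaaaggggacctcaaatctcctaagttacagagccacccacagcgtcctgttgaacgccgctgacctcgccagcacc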

How the data were processed

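Each array was a 2-colour Agilent array with Cy5 on the RNA of the sorted cells and Cy3 on the reference, with no dye swap. Per the file headers, the intensity of each spot and dye and the log10 ratio were taken with Agilent Feature Extraction 9.5.3.1. The authors' table of the whole series gives Cy5 over Cy3 as a linear ratio, which followed the scanner's ratio.

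From the deposited intensity values, backgrounds were corrected with normexp (offset 50), 1639 control spots had weight 0 in the loess fit within arrays, and 1229 outlier spots were left out. The resulting log2 ratios, computed here from the deposited intensities, were compared with lmFit and eBayes of limma 3.58.1 in R 4.3.3, without covariates, with Benjamini-Hochberg adjustment at 0.05. Probes whose Cy5 signal cleared background on 4 or more of 9 arrays were kept (26836 of 41174), and the brightest kept probe stood for a gene. Folds of Cy5 means for dim probes use Cy5 after loess and Aquantile, without a dye swap. Gene names were updated through RefSeq by accession for 23374 probes, by symbol for 6733 and by synonym for 2915, and 8152 kept the name of the file. Promoter sequences are RefSeq's on GRCm38.p6, and probe sequences those of the control arrays' files. The gene fit alone was tested on simulated, independent log ratios with known changes. Background correction, normalization, the filter and the choice of probe were not part of that test.

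Every keratin may be named, and of each other list up to 4 genes past the threshold by smallest p. The keratins and the lists were chosen with earlier results of these data known. Replicate numbers follow the order of deposit. Whether arrays of a group came from separate animals is not stated beyond the design text, so p-values measure the spread between these arrays, whose number limits the precision. Other background corrections, normalizations, filters, single dyes, array weights, the slide as a random block and leaving out each array were tried. Averaging the closest arrays was added after seeing the data.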

Additional observations from a re-analysis of the deposited data

Results flagged for a closer look

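Of 64 sets of values, each a keratin in 1 group of arrays, 9 had an array far from the others of its group by Dixon's criterion, which chance alone meets in about 1 of 20 sets. Fzd8-CRD replicate 2 was highest for Krt17, at a log2 ratio of 5.035 against 4.718 to 4.782 on the other Fzd8-CRD arrays. It was also highest for Krt5, at 4.854 against 4.492 to 4.583, and for Krt2, at 0.8854 against 0.01757 to 0.1589. It was lowest for Krt87, at -0.1854 against 0.1219 to 0.1741. Fzd8-CRD replicate 1 was highest for Krt76, at 0.09665 against -0.07465 to -0.03788. Control replicate 2 was highest for Krt1, at 5.497 against 0.556 to 0.5994 on the other controls, and for Krt14, at 4.215 against 3.625 to 3.706. It was lowest for Krt75, at 0.3105 against 0.6765 to 0.688. Control replicate 1 was highest for Krt4, at 3.457 against 1.423 to 1.697.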

How the results depend on the processing

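With the scanner's ratio, and likewise with the deposited series table, 3 keratins changed and 0 fell. In both, the median of the stress-inducible keratins was 0.69, and 21 partner genes changed (10 in the chosen processing). Partner genes were counted over the desmosome (10 tested), hemidesmosome (9), cornified envelope (12), hair follicle (9), transcription factor (15) and other filament (13) lists. With the scanner's ratio 3 keratin probes changed. Of all genes, 15.2% changed with the scanner's ratio, 14.9% with the series table and 14.3% in the chosen processing. Krt71 turned to 1.61, Krt84 to 0.55 and Krt6a to 0.78 with the scanner's ratio and the series table alike. Median centring gave 613 changed genes (3.35% of all), 3 keratins, 3 lower and 3 partner genes. Scaling between arrays gave 1603 genes (8.77%), 1 keratin, 1 lower, 3 partner genes, medians of 2.79 for basal, -0.50 for stress-inducible and 0.87 for luminal keratins, and Krt13 at 0.45. Cy5 alone gave 5 keratins, a basal median of 0.33 and Krt13 at 0.26. The Cy3 reference alone gave 10796 genes (59.1%), 37 partner genes and medians of -0.12 for basal, -0.15 for stress-inducible and -0.046 for hair and epidermal keratins, with Krt5 at -0.80, Krt34 at -0.17, Krt87 at 0.073, Krt18 at 0.94, Krt19 at -0.12, Krt20 at -0.35, Krt13 at 1.02, Krt4 at 0.0044 and Krt2 at -0.14. The median of hair and epidermal keratins was -0.77 for probes well above background on all arrays, -0.12 without a filter and -0.49 with array weights. Array weights gave 6005 genes (32.9% of all), 16 keratins, 12 lower and 20 partner genes. The slide as a random block gave 5505 genes (30.1%), 15 keratins, 11 lower and 21 partner genes. That fit had a negative consensus correlation within slides of -0.168, and no slide held both groups. With the closest arrays averaged, limma called 338 genes (1.85%), 0 keratins, 0 lower and 1 partner gene. Leaving out 1 array at a time gave 1341 to 3092 genes (7.34% to 16.9%), 4 to 13 keratins, 3 to 10 lower keratins and 5 to 11 partner genes. The fewest keratins, 4, came without control replicate 3 and the most, 13, without control replicate 2, where 6 partner genes changed. Krt5, Krt6a and Krt6b passed in 9 of 9 such fits, Krt79 and Krt84 in 8, Krt13 and Krt4 in 4 and Krt87 in 3. The causes were not tested.

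No paired analysis was possible because the replicate numbers only follow the order of deposit and no slide held both groups. Slide, scan day and treatment cannot be told apart, the identity of the reference is in conflict in the labels, and fewer probes were above background on the Fzd8-CRD arrays than on the control arrays.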
